A study of Homo sapiens with 4 samples.

Results

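Metallothioneins are small cysteine-rich proteins that bind zinc, copper and cadmium in the cytoplasm. Their genes, and that of the zinc exporter SLC30A1 (ZnT1) of the plasma membrane, are switched on by MTF1, a zinc-finger transcription factor that binds metal response elements when free zinc is high. In many cells the metallothioneins and SLC30A1 are therefore read together as a sign of the zinc supply, and metallothioneins also respond to glucocorticoids and to oxidative stress. The genes described here were MT1E, MT1F, MT1G, MT1H, MT1X, MT2A and MT3, the regulator MTF1 and the exporter SLC30A1, 9 of the 19740 genes represented on the arrays. They were named by a list, and all 17 probe sets that the platform annotation gives to 1 of them alone were read. The list was chosen by a proposal made with the signals and ratios of these same arrays in view, so the values below are a description and no test was made on them.

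The study measured RNA of cultured human lung adenocarcinoma cells on 4 Affymetrix arrays, 1 array for each of 4 groups. CL1-0 cells carried either a control vector or a PSAT1 vector. The series' design calls the latter overexpression, while 1 label field lists this vector under the heading shRNA, and PSAT1 signal itself differed little between these arrays, so "with PSAT1" in CL1-0 names the label of the array. CL1-5 cells, a more invasive line derived from CL1-0, carried either a non-silencing short hairpin (shRNA) or a hairpin against PSAT1, the aminotransferase of serine synthesis. All were stably transduced and selected with puromycin for 2 weeks, and the labels call the cells type II alveolar cells. Nothing in the labels says whether a line was 1 clone, and no batch is named. Each level is the deposited MAS5 signal of a probe set, in linear units. For ratios, signals below 49.0, the pooled median with control probe sets left out, were raised to that floor. With 1 array per group there were no replicates, so no p-value or SE could be given, and "rose", "fell", "higher" and "lower" mean a difference of at least 2-fold between 2 arrays. In bulk RNA of this kind, fewer cells with a transcript and less of it per cell cannot be told apart. As the only spread at hand, log2 ratios of probe sets of the same gene varied with an SD of 0.29 for the CL1-0 arrays, 0.17 for the CL1-5 arrays and 0.51 when the lines were compared by their controls. This SD comes from probe sets on the same 2 arrays and does not measure the spread between repeat cultures or repeat arrays.

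The arrays had 48.0% to 52.0% of probe sets above the floor. By gene, on the brightest probe set, 13187 of all 19740 were above it on at least 1 array of the CL1-0 pair. A count of markers above the floor therefore says little about a cell type. PSAT1, the targeted gene, read 143 with the hairpin against 1760 without it in CL1-5, a 12.3-fold fall on its brighter probe set, and 107 against 384, a 3.58-fold fall, on the dimmer. In CL1-0 the same probe sets read 5494 with the PSAT1 vector against 4214 without it (1.30-fold) and 1617 against 1509 (1.07-fold). Of 8 alveolar type II markers, 6 were above the floor on every array, with summed signals of 642 to 877, while SFTPD and SLC34A2 were at the floor on all 4. Of 6 epithelial markers, the keratins KRT7, KRT8 and KRT18 were above the floor on every array, and EPCAM, CDH1 and KRT19 on none. Of 6 mesenchymal or fibroblast markers, VIM, COL1A1 and THY1 were above it on every array and COL3A1 only in CL1-0 with vector, with summed signals of 12621 to 18372. The immune markers PTPRC, CD3E and LYZ were at the floor on all 4 arrays. Of 3 endothelial markers, PECAM1 was above it on all arrays, VWF on those of CL1-5 and CDH5 on none.

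The 7 metallothionein members lie in a run of 19 genes from MT4 to MT1X in the RefSeq order, of which 16 are metallothionein genes or pseudogenes. Metallothionein transcripts are alike in sequence, and 9 of the 11 member probe sets of the family carry the suffix _x_at, which the maker gives to probe sets that can hybridise to transcripts of several genes. A value written here for 1 metallothionein can therefore hold signal of another, and agreement among these 9 probe sets is not agreement among independent measurements. The probe set 204326_x_at, which the annotation gives to MT1X, carries a target accession that the RefSeq gene table lists for MT1L, a pseudogene of the same run. Only 2 metallothionein probe sets lack the suffix, 210472_at of MT1G and 205970_at of MT3.

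The sequences just upstream of these genes are shown because MTF1 is known to act there on both kinds of gene. In the CL1-0 pair MT2A, MT1H, MT1X and SLC30A1 all read above the control. In the CL1-5 pair only SLC30A1 of these rose, and between the lines it went the other way from the rest. Any part of the sequences in this was not tested. The 250 bases before the annotated start were taken from RefSeq promoters on GRCh38.p14, 5′ to 3′ on the strand of the gene. That table was matched for 5 of the 9 members, MT1H, MT1X, MT2A, MTF1 and SLC30A1, and the promoters of MT1E, MT1F, MT1G and MT3 were not analysed here. Capitals mark the core of the metal response element, searched as TGCACNC and TGCGCNC on both strands. No 2 matches overlapped.
MT2A, chr16:56608334-56608583, plus strand: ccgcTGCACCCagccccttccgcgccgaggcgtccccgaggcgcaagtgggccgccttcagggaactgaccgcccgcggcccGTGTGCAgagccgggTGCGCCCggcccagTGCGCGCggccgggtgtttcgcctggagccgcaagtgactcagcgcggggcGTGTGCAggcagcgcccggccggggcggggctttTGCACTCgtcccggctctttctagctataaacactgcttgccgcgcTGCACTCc
MT1X, chr16:56682220-56682469, plus strand: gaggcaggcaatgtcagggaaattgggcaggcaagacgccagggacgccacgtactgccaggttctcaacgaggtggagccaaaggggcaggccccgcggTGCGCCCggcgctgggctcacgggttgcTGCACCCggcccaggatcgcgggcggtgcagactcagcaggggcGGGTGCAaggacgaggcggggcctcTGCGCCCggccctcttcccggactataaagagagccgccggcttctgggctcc
MT1H, chr16:56669564-56669813, plus strand: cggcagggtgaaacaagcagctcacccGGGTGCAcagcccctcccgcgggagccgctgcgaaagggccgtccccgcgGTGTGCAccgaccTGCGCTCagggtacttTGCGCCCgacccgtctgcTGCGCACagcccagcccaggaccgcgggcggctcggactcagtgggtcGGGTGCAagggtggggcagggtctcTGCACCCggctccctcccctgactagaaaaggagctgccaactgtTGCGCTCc
SLC30A1, chr1:211579162-211579411, minus strand: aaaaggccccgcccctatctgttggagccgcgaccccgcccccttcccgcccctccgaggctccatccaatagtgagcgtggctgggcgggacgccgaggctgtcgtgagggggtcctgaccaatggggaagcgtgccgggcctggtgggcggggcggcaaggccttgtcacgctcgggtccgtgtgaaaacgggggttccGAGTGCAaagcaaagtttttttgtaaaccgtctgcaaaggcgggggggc
MT1H had 8 matches, MT2A had 7 and MT1X had 4 in these windows. SLC30A1 had 1 match, 49 bases before its start, and MTF1 had 0 in its own window, which says only that these letters are not there. Of all 35116 RefSeq promoters of the same length, 24.8% held at least 1 match. As many as 8 matches were found in 6 of them, 7 or more in 11 and 4 or more in 130. A match of 7 letters is a description of the sequence and was not tested as a binding site. Matches lay 78 and 53 bases before the start in both MT1H and MT1X, and 88 and 54 bases before it in MT2A.

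In CL1-0 cells, 8 of the 9 metallothionein _x_at probe sets and the measured ones of SLC30A1 read above the control on the array with PSAT1, MT3 read below it, and none of the 9 genes reached 2-fold. MT2A, the most widely expressed metallothionein, read 3317 with PSAT1 against 1702 with vector, 1.95-fold (log2 ratio 0.96). MT1X, on the probe set aimed at its own transcript, read 2478 against 1413 (1.75-fold). MT1H read 1279 against 717 (1.78-fold). These are all just short of the 2-fold line, on the same side of the control. MT1G read 759 against 481 on its _x_at probe set (1.58-fold), and 18.1 against 20.9, both under the floor, on the probe set without that suffix. MT1F read 698 against 504 on its brighter probe set (log2 ratio 0.47) and 272 against 156 on the dimmer (0.80). MT1E read 285 against 199 (0.52). Its dimmer probe set read 102.3 on both arrays, equal in every deposited digit, as were 1260 of the 54675 probe sets of this pair.

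Over the 9 _x_at probe sets, 8 had ratios above 0, from 0.47 to 0.96, and the ninth was that of identical values. Of the 9 genes, 0 were 2-fold higher and 0 lower, where 2.56% and 1.01% of all 13187 measured genes were. At 1.5-fold, 5 members were higher, MT1G, MT1H, MT1X, MT2A and SLC30A1, beside 9.21% of all genes. The median log2 ratio of the 9 was 0.66, that of all genes -0.014. MT2A alone crossed 2-fold with another scaling, at 1.03 under quantile normalization.

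SLC30A1, which carries zinc out across the plasma membrane, read 1818 with PSAT1 against 1004 with vector in CL1-0 on its brightest probe set, 212907_at (1.81-fold). Its second probe set, 228181_at, read 411 against 339 (1.21-fold). Both ratios were above 0 and differed from each other by more than the usual SD between probe sets. The third, 242716_at, lay under the floor on all 4 arrays, between 18.3 and 21.0. MTF1 had ratios below 0. Its 3 probe sets read 337 against 343, 173 against 233 and 149 against 168, all under 2-fold. MT3, a metallothionein best known from brain, read 84.6 against 119 (log2 ratio -0.50).

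**Figure D1:**
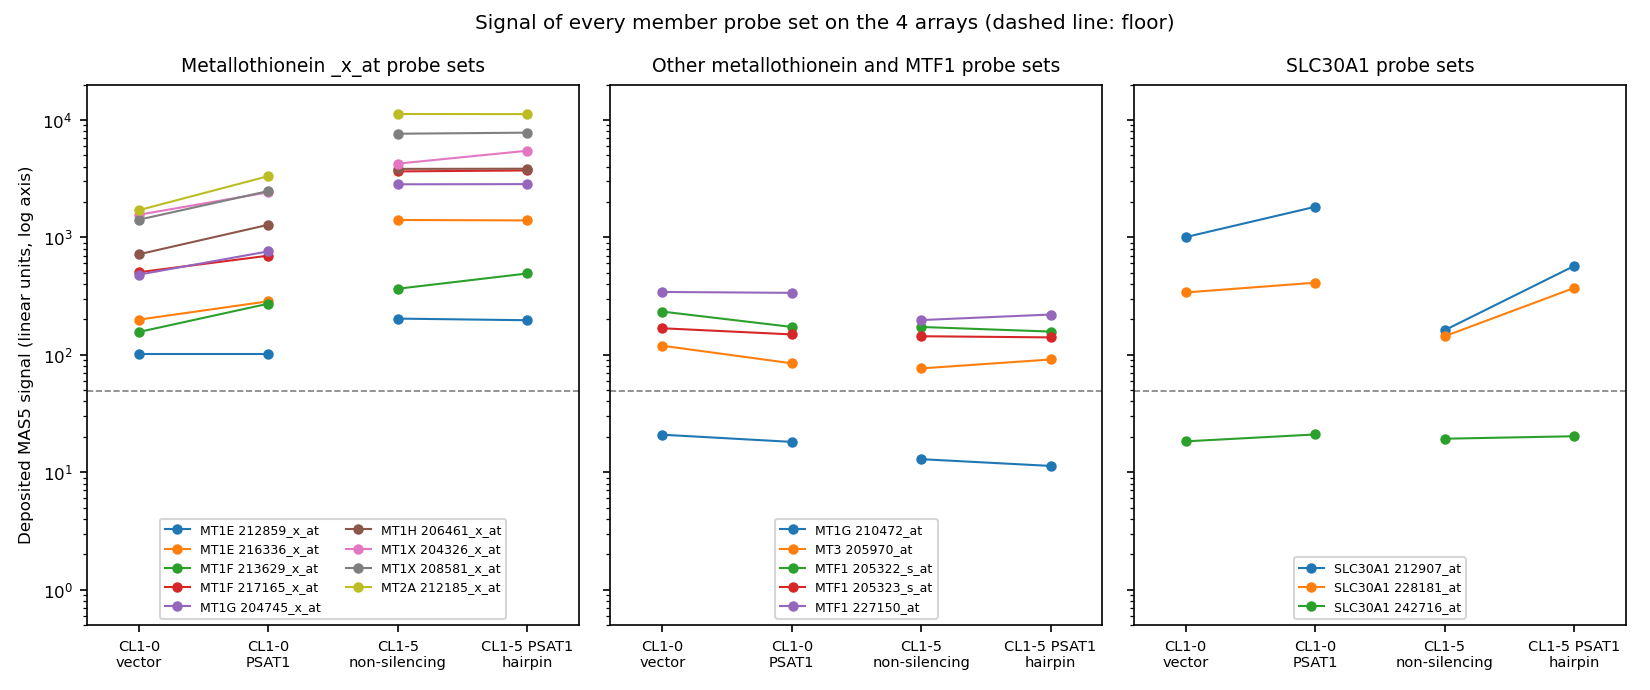
Deposited MAS5 signal (log axis) of all 17 member probe sets on the 4 arrays, 1 point per probe set and array, with lines joining the 2 arrays of a line and the floor of 49.0 dashed. The metallothionein _x_at probe sets were brighter on the CL1-5 control than on the CL1-0 control, 7 of the 9 were nearly level within CL1-5 (213629_x_at and 204326_x_at were not), and SLC30A1 was dimmest on the non-silencing array of CL1-5 (162 on its brightest probe set).

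In CL1-5 cells the picture separated: SLC30A1 rose with the PSAT1 hairpin and the metallothioneins did not. On 212907_at SLC30A1 read 569 with the hairpin and 162 on the control array, a 3.52-fold rise, and 370.1 against 144 on 228181_at, a 2.58-fold rise. Among 12821 measured genes of this pair, the first of these ranked 5 in the order of rises. It was the 1 member of 9 that was higher, and 0 were lower, beside 0.398% and 0.421% of all genes. Across the 6 alternative settings SLC30A1 kept a log2 ratio between 1.06 and 1.94, the lowest with the mean over its probe sets, which includes the 1 under the floor.

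MT2A read 11189 with the hairpin and 11219 without it. MT1X read 7781 and 7618 on 208581_x_at, MT1H 3837 and 3824, and MT1G 2837 and 2826. MT1F read 3709 and 3641 on its brighter probe set, and MT1E 1393 and 1405. On the log2 scale these 6 ratios lay between -0.01 and 0.03, well inside the SD between probe sets of a gene in this pair. That SD holds no spread between cultures, and the 6 probe sets are not independent. Next to so level a group, 2 _x_at probe sets stood off: 213629_x_at of MT1F read 492 against 365 (log2 ratio 0.43) and 204326_x_at, the one with the MT1L accession, read 5455 against 4240 (0.36). Both were chosen for mention after their values were seen, and neither reached 2-fold. MT1G on the probe set without the suffix was under the floor again, at 11.3 and 12.9. MT3 read 91.1 against 76.5 (0.25). The regulator MTF1 read 220.1 against 197, 158 against 172 and 141 against 144 on its 3 probe sets, with 1 ratio above 0 and 2 below.

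**Figure D2:**
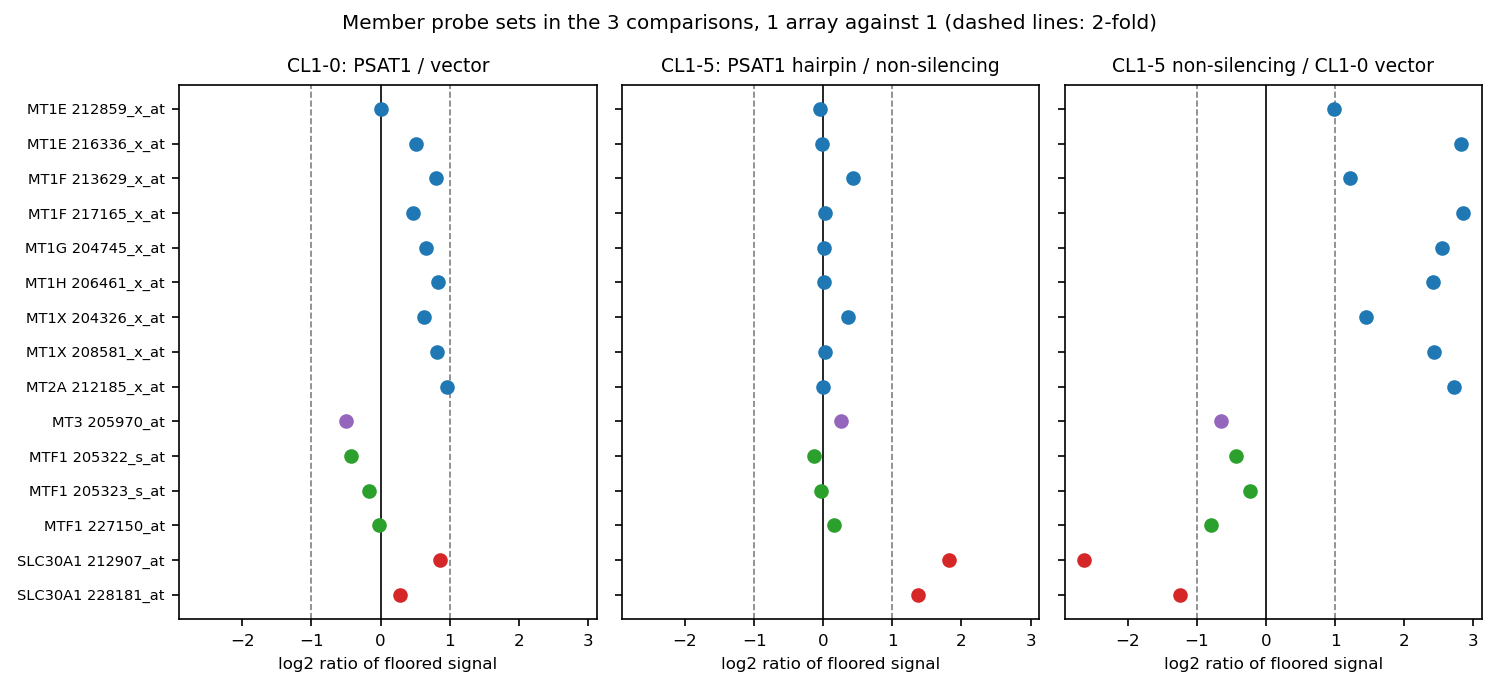
Log2 ratio of floored signal for the 15 member probe sets above the floor, within CL1-0, within CL1-5 and for the CL1-5 control over the CL1-0 control, 1 array against 1, with 2-fold dashed. Blue points are metallothioneins other than MT3, purple is MT3, green MTF1 and red SLC30A1. In the CL1-5 pair only the SLC30A1 points (1.82 and 1.37) passed 2-fold, and between the lines SLC30A1 and the blue points lay on opposite sides of 0.

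The control arrays of the lines set 6 of the 7 metallothioneins and the exporter far apart and in opposite directions. MT3 alone of the 7 had a ratio on the side of the exporter. These ratios share the control arrays with both comparisons above. MT2A read 11219 in CL1-5 with the non-silencing hairpin against 1702 in CL1-0 with vector, 6.59-fold higher. MT1F was 7.22-fold higher (3641 against 504), MT1E 7.06-fold (1405 against 199) and MT1G 5.88-fold (2826 against 481). MT1X was 5.39-fold higher (7618 against 1413) and MT1H 5.33-fold (3824 against 717). Thus 6 of the 9 members were higher, where 5.25% of all 13720 measured genes were. They ranked between 172 and 227 in the order of rises. All 6 were read on _x_at probe sets, which are not independent measurements. The dimmer probe sets gave smaller ratios, 2.33-fold for 213629_x_at of MT1F, 2.72-fold for 204326_x_at and 1.99-fold for the dimmer of MT1E. The probe set of MT1G without the suffix was under the floor on both control arrays, at 12.9 in CL1-5 and 20.9 in CL1-0. On the CL1-0 array with PSAT1, MT2A at 3317 was still far under both CL1-5 arrays.

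SLC30A1 fell in the same comparison, with 162 in CL1-5 against 1004 in CL1-0, 6.21-fold lower, and 144 against 339 on its second probe set, 2.36-fold lower. It was the 1 member lower, where 24.8% of all genes were. At 1.5-fold MT3 and MTF1 were lower too, which made 3, beside 44.5% of all genes. MT3 (76.5 against 119) and MTF1 (197 against 343, 172 against 233 and 144 against 168) did not reach 2-fold. With deposited scaling the median gene itself had a log2 ratio of -0.49 between the lines, and quantile normalization and median centring moved it to 0.00061 and 0.093. The share of higher among all 2-fold differences was 17.5% as deposited, 51.6% under quantile normalization and 54.6% under centring. MT2A then had log2 ratios of 3.23 and 3.34, against 2.72 as deposited. SLC30A1 had -2.02 and -2.02 on 212907_at, but -0.72 and -0.62, under 2-fold, on 228181_at. The dimmer MTF1 probe sets turned to ratios above 0 under both, at 0.06 and 0.18 for 205322_s_at and 0.23 and 0.39 for 205323_s_at. The summed signal of the 6 epithelial markers also moved between the lines, from 807 to 958 in CL1-0 and from 6748 to 7488 in CL1-5, and its part in these differences was not tested.

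The order of levels over the 4 arrays thus ran differently for buffer and exporter. MT2A was lowest in CL1-0 with vector, then CL1-0 with PSAT1, and the CL1-5 arrays at the top could not be ranked apart. SLC30A1 on 212907_at was lowest in CL1-5 with the non-silencing hairpin, then CL1-5 with the PSAT1 hairpin, CL1-0 with vector and CL1-0 with PSAT1. On 228181_at the upper 3 arrays lay close, at 339, 370.1 and 411, with CL1-5 hairpin above CL1-0 vector. MT1HL1, a metallothionein-like gene outside the cluster that is no member, read 966 with vector and 1825 with PSAT1 in CL1-0 on its 1 _x_at probe set, and 6126 without and 6306 with the PSAT1 hairpin in CL1-5. MT1M was under the floor on all 4 arrays, at 10.1 to 12.8, and MT4 read 61.4 to 79.0.

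The genes nearest to each pattern were taken by Euclidean distance between floored log2 signals centred on their mean over the 4 arrays. They were sought among 9126 genes whose brightest array reached 213 or more. All members were left out of the search, so no other metallothionein member could appear beside MT2A. With 4 points per gene this is a description of shape only. Nearest to MT2A was MT1HL1, at a distance of 0.05, whose probe set may share its transcripts. It was followed by the adaptor SH3KBP1 (0.30), FAM86B2-DT (0.32), ZNF22 (0.34) and the growth arrest gene GADD45A (0.38). No gene came so near to SLC30A1, whose closest were DMKN at 0.78, STOX2 at 0.79, the apolipoprotein APOE at 0.86, the desaturase SCD5 at 0.86 and SCARNA15 at 0.87. DMKN read 527 with the PSAT1 hairpin against 235 in CL1-5, a rise, but 1447 against 1457 in CL1-0. APOE read 1964 with PSAT1 against 766 with vector in CL1-0 and 266 with the hairpin against 119 in CL1-5, higher in both.

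**Figure D3:**
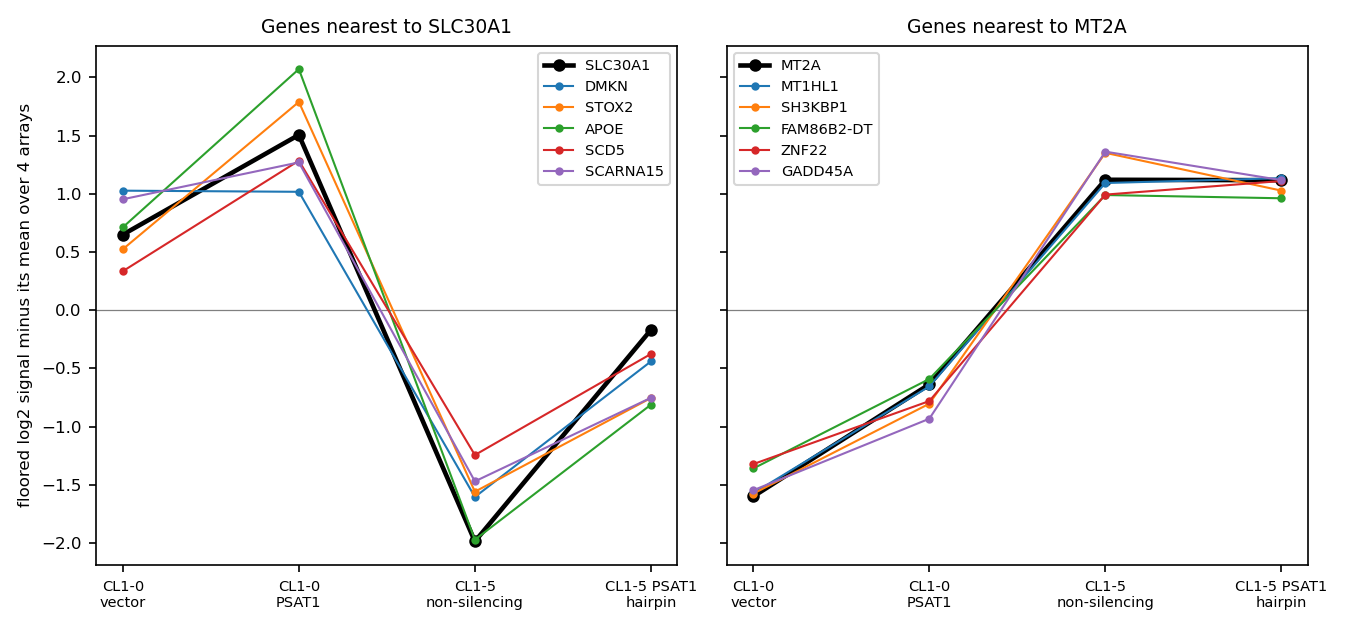
Floored log2 signal minus its mean over the 4 arrays for SLC30A1 (left) and MT2A (right), in black. Each is shown with its 5 nearest genes in colour, members left out. The curves around MT2A lie within 0.38 of it in distance and those around SLC30A1 within 0.87, and the black curves peak in different lines.

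No zinc transporter on the lists other than SLC30A1 reached 2-fold in the CL1-5 pair. Of all genes there, 0.398% were higher and 0.421% lower, and SLC30A1 was listed with its values in view. SLC30 proteins carry zinc out of the cytoplasm, into vesicles, the Golgi or the medium, and SLC39 proteins carry it in. Of the 10 other exporters listed, 6 were measured in each comparison. In CL1-0, 1 was higher with PSAT1, SLC30A4, which fills intracellular vesicles (878 against 324, 2.71-fold, on the 1 of its probe sets above the floor), beside 2.56% of all genes. With the mean over probe sets 0 were higher. The median log2 ratio of the 6 was 0.10, but -0.07 with the mean over probe sets, where 1 ratio was above 0 and 5 below. SLC30A9 read 2546 against 1925 and SLC30A6 1215 against 1071, each on its brightest probe set. No other measured probe set of either gene had a ratio above 0. SLC30A5, which serves the early secretory pathway, read 1163 against 1237. In CL1-5, 0 of 6 reached 2-fold and the median was -0.21, with SLC30A7 at 357 with the hairpin against 518. SLC30A9 read 503 against 637, SLC30A6 251 against 302 and SLC30A4 253 against 220 in that pair. SLC30A10, an exporter best known for manganese, was under the floor on all 4 arrays. Between the lines, SLC30A6 (302 against 1071), SLC30A9 (637 against 1925) and SLC30A5 (482 against 1237) were lower in CL1-5, 3 of 6 beside 24.8% of all genes, but only SLC30A6 was under quantile normalization or centring, and only SLC30A5 and SLC30A9 with the mean over probe sets.

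Importers showed 1 fall among 12 measured of 14 in CL1-0. SLC39A8 (ZIP8), which takes up zinc, manganese and cadmium, read 46.7 with PSAT1, under the floor, against 149.9 with vector, at least 3.06-fold lower, on the brightest of 3 measured probe sets of the same sign. Averaging its probe sets, or raising the floor to the 65th percentile, left it under 2-fold. Of all genes in this pair, 1.01% were lower. The median log2 ratio was -0.23, with 11 of 12 ratios below 0 as deposited and under quantile normalization and centring. SLC39A10, a plasma membrane importer, read 1363 against 2192 in CL1-0 and 992 with the hairpin against 1724 in CL1-5, under 2-fold in each (log2 ratios -0.69 and -0.80). That was the largest ratio in size of any importer in CL1-5. In that pair 0 of 12 reached 2-fold, beside 0.398% of all genes higher and 0.421% lower, and the median was -0.01. SLC39A11 read 214 against 283 there. SLC39A8 read 260 against 235, and SLC39A14 (ZIP14), which carries zinc and iron, 2007 against 1891. In CL1-0, SLC39A14 read 5691 against 6001. Between the lines 4 importers were lower in CL1-5, SLC39A14 (3.17-fold), SLC39A6 (2.68-fold), SLC39A3 (2.57-fold) and SLC39A7 (2.05-fold), 4 of 12 beside 24.8% of all genes. With the mean over probe sets SLC39A6 and SLC39A7 alone were lower. Under quantile normalization and centring SLC39A14 alone of them was lower and SLC39A8 was higher.

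**Figure D4:**
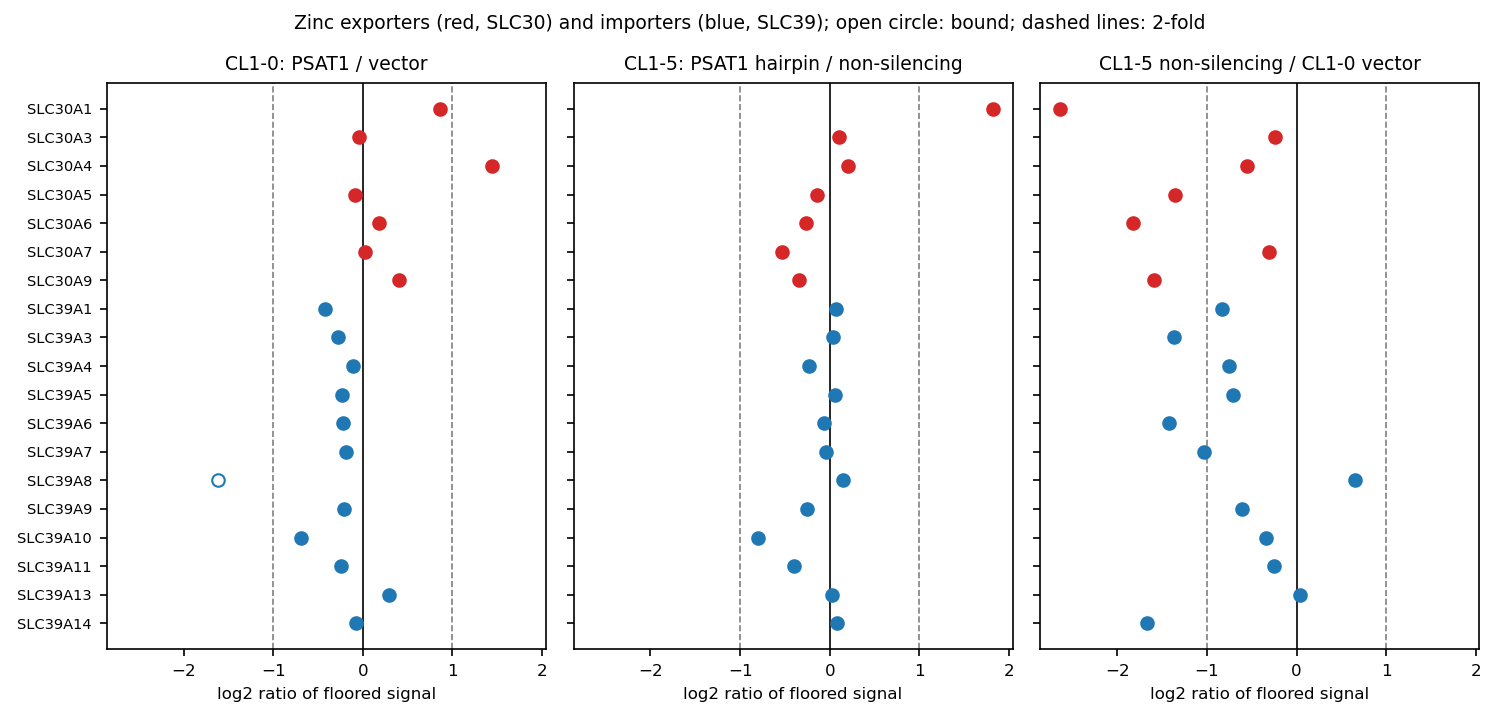
Log2 ratio of floored signal for measured zinc exporters (SLC30, red, SLC30A1 at the top) and importers (SLC39, blue) in the 3 comparisons, 1 array against 1, with 2-fold dashed and the open circle a lower bound on the size. SLC30A1 is the 1 transporter past 2-fold in the CL1-5 pair (1.82), and in the CL1-0 pair SLC30A4 (1.44) and SLC39A8 (-1.61) are past it.

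Genes that answer metals or oxidants in other ways had falls and no rise in CL1-0. Of 12 listed genes of metal and oxidative stress, 10 were measured, and in CL1-0 2 were lower with PSAT1 and 0 higher, beside 1.01% and 2.56% of all genes. These were the haem oxygenase HMOX1 (1010 against 2371, 2.35-fold) and the heat shock co-chaperone DNAJB1 (1329 against 2870, 2.16-fold). The median log2 ratio was -0.34, with 9 of 10 ratios below 0 as deposited (8 under quantile normalization). GCLM, a subunit of the enzyme that starts glutathione synthesis, read 1388 against 2227 (log2 ratio -0.68), and the cystine importer SLC7A11 5870.2 against 4340.4 (0.44). In CL1-5, 0 of 10 reached 2-fold, beside 0.398% of all genes higher and 0.421% lower. HMOX1 read 1877 with the hairpin against 2094 and SLC7A11 472 against 576. The median was -0.03, with 4 ratios above 0 and 5 below. Between the lines GCLM was just past 2-fold higher in CL1-5 (4458 against 2227), but under it with the mean over probe sets, and SLC7A11 7.53-fold lower, with DNAJB1 and HSPB1 2.43-fold and 2.48-fold lower, though these last 2 were under 2-fold with either other scaling.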

How the data were processed

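Deposited values were linear probe set intensity, 1 column for each of 4 arrays, made by the authors with MAS5 per the submitters' processing notes; version, scaling target and detection calls are not given in the sources used here. Biotinylated cRNA came from 6 ug of total RNA, per the labels' protocols. Of 54675 probe sets, 62 were controls. The platform annotation gave 1 gene to 41097 probe sets, several to 1801 and none to 11777; 41043 of the first were found in the RefSeq gene table, which updated symbols. Y-linked genes and those of X inactivation were left out.

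Signals were floored at the pooled median (the 50th percentile) and log2 transformed. A gene took its probe set with the highest mean; it was measured where at least 1 array of the pair exceeded the floor, and a ratio against the floor is a bound. Alternatives were quantile normalization, centring on probe sets above the floor everywhere, floors at the 25th and 65th percentile, the mean over probe sets, removal of _x_at probe sets and a 1.5-fold rule. All members were named. For the other lists, most genes named were among the 4 with the largest ratios per list and comparison, and some of those were left out. SLC30A10, SLC39A8, SLC39A10, SLC39A14 and HMOX1 were also chosen for naming. Members and lists were chosen with earlier results of these data known. The ratio step was tested on simulated data. The number of arrays limits the precision. Work used Python 3.11.15, numpy 2.4.6 and pandas 2.3.3.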

Additional observations from a re-analysis of the deposited data

How the results depend on the processing

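No paired analysis was possible because each group had 1 array, and for the same reason no array could be left out. Of 143 log2 ratios of single members under the other settings, 142 kept their side of 2-fold. The exception was MT2A in the CL1-0 pair (1.03 under quantile normalization). Many of these ratios could not change, since other floors do not touch bright probe sets and averaging does not touch genes with a single probe set. The second SLC30A1 probe set, under 2-fold between the lines with both other scalings, was not counted by itself. Signs near 0 were not all kept, as for MT1G in the CL1-5 pair (0.006 as deposited, -0.012 under quantile normalization). In the CL1-0 pair the count of members higher was 1 under quantile normalization and 5 with the 1.5-fold rule, against 0. Between the lines the count of members lower was 3 with that rule, against 1. Leaving out _x_at probe sets removed every metallothionein but MT3 from the measured genes and left 3 members. Their median was -0.025 within CL1-0, 0.25 within CL1-5 and -0.80 between the lines, where the median of all 9 was 2.43 and 0 members were then higher instead of 6. So the metallothionein values rest on probe sets with that suffix, which those of SLC30A1 lack. Between the lines the median was 3.05 under quantile normalization, 3.05 under centring and 1.90 with the mean over probe sets. Signals under the floor have no order.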

Other observations

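Copper and iron genes gave few differences, but few genes of any kind differed within a line. Of all genes in the CL1-0 pair, 2.56% were higher and 1.01% lower. In CL1-0, 0 of 8 measured copper genes reached 2-fold (median log2 ratio -0.077; COX17 did with the floor at the 25th percentile), with the copper pump ATP7B at 250 with PSAT1 against 160 with vector, and 0 of 8 iron genes did (median 0.02). The iron reductase CYBRD1 came nearest, at 279 against 142 (1.96-fold). In CL1-5, 0 of 8 copper and 0 of 7 iron genes reached 2-fold, beside 0.398% of all genes higher and 0.421% lower. Between the lines CYBRD1 was 2.56-fold higher in CL1-5 (363 against 142), also with both other scalings, and the metal importer SLC11A2 3.02-fold lower (516 against 1560), which was under 2-fold with both and with the mean over probe sets. The 1 copper gene past 2-fold was ATP7B, 2.04-fold lower in CL1-5 (78.7 against 160), a call lost under quantile normalization, under centring, with the floor at the 65th percentile and when probe sets were averaged. Of all genes, 5.25% were higher between the lines and 24.8% lower.

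Genes of the glucocorticoid response, which also acts on metallothioneins, were listed beside them. In CL1-0, 1 of 7 measured genes was higher with PSAT1, ERRFI1 (1910 against 658), beside 2.56% of all genes. In CL1-5 0 of 7 were, beside 0.398% of all genes, with DUSP1 at 3689 with the hairpin against 2668. Between the lines SGK1 (933 against 67.3), ERRFI1 (8294 against 658) and DUSP1 (2668 against 508) were higher in CL1-5. That was 3 of 7, beside 5.25% of all genes, and NR3C1 was higher too with both other scalings. For DUSP1, 2 of 3 measured probe sets had a ratio above 0. KLF9 was at least 12.6-fold lower, with 3 of its 4 measured probe sets below 0. FKBP5 was also lower, under 2-fold with both other scalings, which made 2 of 7 lower beside 24.8% of all genes.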
